A study of Homo sapiens with 6 samples.

Results

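The activin system was followed through 10 genes of 17721 in the deposited table: the inhibin beta chains INHBA, INHBB and INHBE, the secreted proteins FST, FSTL3 and FSTL1, and the receptors ACVR1, ACVR1B, ACVR2A and ACVR2B. They were taken by gene symbol as a family. The family was chosen by its values in the hairpin comparison, in which FSTL3 was among the largest decreases, so the members' differences between hairpins describe these libraries and are no test: they are given as levels and fitted values with their SE, and nothing is supported with them. All 10 passed the low-count filter and were among the 13003 genes tested. RNA came from MDA-MB-231BR, a brain-tropic derivative of the MDA-MB-231 breast cancer line, grown alone in serum-containing medium. Cells received lentivirus with a control short hairpin RNA (shRNA) or an shRNA against ACSS2, the enzyme that makes acetyl-CoA from acetate. They were kept under antibiotic selection, with 3 biological replicates per group. How many hairpin sequences were used, and whether the selected cells were pools or clones, is not given in the labels. The control hairpin and the ACSS2 hairpin below therefore name the groups, not single sequences. The study asked what ACSS2 contributes to the growth of breast cancer in the brain.

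Activins are dimers of inhibin beta chains, released from larger precursors by proprotein convertases. They bind a type II receptor, ACVR2A or ACVR2B, which recruits and phosphorylates a type I receptor, mainly ACVR1B, and the active complex phosphorylates SMAD2 and SMAD3. Follistatin (FST) and follistatin-like 3 (FSTL3) wrap around activins outside the cell and keep them from their receptors. In breast epithelium the pathway is known for restraining growth and, in carcinoma, for effects on migration and matrix.

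The targeted gene was checked first. ACSS2 had 76.3, 71.2 and 164 CPM (read counts scaled to a common library size) with the control hairpin in replicates 1, 2 and 3, and 11.1, 50.5 and 88.7 CPM with its own hairpin. The groups overlapped, because ACSS2 shRNA replicate 3 lay above control replicates 1 and 2, while every same-numbered pair was lower under the ACSS2 hairpin (log2 differences -2.76, -0.49 and -0.88). The labels number the replicates 1 to 3 as a batch in both groups, and libraries with the same number deviated together, so the comparison is given from edgeR's quasi-likelihood test with the replicate number as a block (the paired fit) beside the same test without it (the unpaired fit). Outside the family, a gene is said to rise or fall where its Benjamini-Hochberg adjusted p was under 0.05 in the paired fit. In that fit ACSS2 fell by 1.31 on the log2 scale (SE 0.30, adjusted p = 0.00757). DESeq2 with the same block did not call it (adjusted p = 0.126). With the replicate 1 libraries left out it was -0.70. In the unpaired fit ACSS2 was not called (-1.05, SE 0.64, edgeR adjusted p = 0.504). The authors' deposited comparison gave -1.07 for ACSS2 (q = 0.772). The unpaired fit called 9 genes, 0.0692%, and 1820 had an unadjusted p under 0.05. It was planned as the main fit, with the paired fit as the alternative. None of the pathway and marker genes listed below was called in it, so each rise or fall given for them is that of the paired fit. DESeq2 without the block called the ligand gene BMP2, the receptor gene TGFBR2 and 5 activin and TGF-beta target genes, among them JUNB, COL1A1 and PMEPA1.

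The upstream stretches of FSTL3, FST and INHBA are shown because both antagonist transcripts were lower in every pair, while pairs of INHBA, the most abundant beta-chain gene, went in different directions. Each line gives the 250 bases before a RefSeq start on GRCh38.p14, read 5′ to 3′, with capitals marking matches on either strand to the motifs searched. For FSTL3 and FST this is the start of the RefSeq gene. The INHBA start lies inside the RefSeq gene (41685114 to 41705406), so its window is not upstream of the whole gene.
FSTL3 promoter, chr19:676142-676391, plus strand: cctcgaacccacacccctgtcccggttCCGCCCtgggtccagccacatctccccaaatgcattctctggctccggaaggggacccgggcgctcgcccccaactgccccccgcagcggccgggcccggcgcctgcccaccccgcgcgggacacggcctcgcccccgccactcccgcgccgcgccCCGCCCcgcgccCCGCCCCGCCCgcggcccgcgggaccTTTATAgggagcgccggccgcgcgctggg
FST promoter, chr5:53480379-53480628, plus strand: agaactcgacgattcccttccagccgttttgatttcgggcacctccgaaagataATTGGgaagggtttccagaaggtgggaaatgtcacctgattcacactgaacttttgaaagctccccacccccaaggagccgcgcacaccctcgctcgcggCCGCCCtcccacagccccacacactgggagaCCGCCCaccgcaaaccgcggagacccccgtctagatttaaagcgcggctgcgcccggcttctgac
INHBA promoter, chr7:41703091-41703340, minus strand: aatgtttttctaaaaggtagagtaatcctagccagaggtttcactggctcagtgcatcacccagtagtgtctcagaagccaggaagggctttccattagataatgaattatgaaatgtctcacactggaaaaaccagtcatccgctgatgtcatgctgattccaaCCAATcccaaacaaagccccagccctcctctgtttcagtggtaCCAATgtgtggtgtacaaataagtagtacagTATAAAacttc
The motifs were the SMAD box CAGAC, the palindromic SMAD element GTCTAGAC, the AP-1 site TGACTCA, the Sp1 GC box GGGCGG, the TATA box TATAAA, the CCAAT box CCAAT and the E2F site TTTGGCGC. The window searched, which also holds the 50 bases after the start, was 78.7% G or C in FSTL3, 63.7% in FST and 43.3% in INHBA, against a median of 58.7% over 35116 windows. FSTL3 held 44 CG dinucleotides, FST 32 and INHBA 1, against a median of 14. The FSTL3 window held 4 GC boxes, of which the 2 nearest the start overlap, and a TATA box read on the other strand 29 bases before the start. FST held 3 GC boxes, 1 of them after the start, and 1 CCAAT box. INHBA held a TATA box, 3 CCAAT boxes, 1 of them after the start, and a single CAGAC after the start. The AP-1 site, the palindromic SMAD element and the E2F site had no match in these 3 windows. Of all windows, 45.3% hold CAGAC, 0.202% GTCTAGAC, 4.95% TGACTCA, 45% GGGCGG, 11.5% TATAAA, 34.6% CCAAT and 0.652% TTTGGCGC. A match describes letters only. Windows were found for 9 of the 10 members, all but INHBE.

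A second set of sequences shows TGGGTC, a 6-base word picked in an earlier look at these data, at the members' 3′ untranslated regions (UTRs). The lines give the 30 bases around the match in GENCODE 29 transcripts on GRCh38, in capitals, for FSTL3 and ACVR1B, which were lower in every pair, and for INHBA and FSTL1, which were not.
FSTL3 3′ UTR, chr19:683299-683328, plus strand: cccctaggttggTGGGTCtacaggagcctc
ACVR1B 3′ UTR, chr12:51995322-51995351, plus strand: gaggcatctgcaTGGGTCttcttttactgg
ACVR1B 3′ UTR, chr12:51995966-51995995, plus strand: acaagacatgctTGGGTCctactcctggag
INHBA 3′ UTR, chr7:41685779-41685808, minus strand: gaagctgttgtaTGGGTCagagaaaatgaa
FSTL1 3′ UTR, chr3:120394066-120394095, minus strand: gatcatggatagTGGGTCtggagtagaagg
The word was present in 5 of the 10 members, once each in FSTL3, FSTL1 and INHBA, in 2 copies in ACVR1B and in 8 copies in ACVR2B, whose 3′ UTR is 9810 bases long. It was in none of the 3′ UTRs of FST, INHBB, INHBE, ACVR1 and ACVR2A. Of 12790 tested genes with an annotated 3′ UTR, 29% held it, at a median length of 1349 bases. The other 3′ UTRs with the word had 1691 (FSTL3), 2968 (ACVR1B), 4536 (INHBA) and 4659 bases (FSTL1). Those without it had 1087 (ACVR1), 1160 (INHBE), 1418 (FST), 1934 (INHBB) and 3552 bases (ACVR2A). The part of length in the presence of the word was not tested. Of the 5 members that were lower in all pairs, FSTL3, ACVR1B and ACVR2B held the word, and FST and INHBB did not. Of the 4 that were higher in all pairs, FSTL1 held it, and ACVR1, ACVR2A and INHBE did not. INHBA, with pairs in both directions, held it. The word and the family were both picked with these data in view, so nothing is read from this split.

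**Figure D1:**
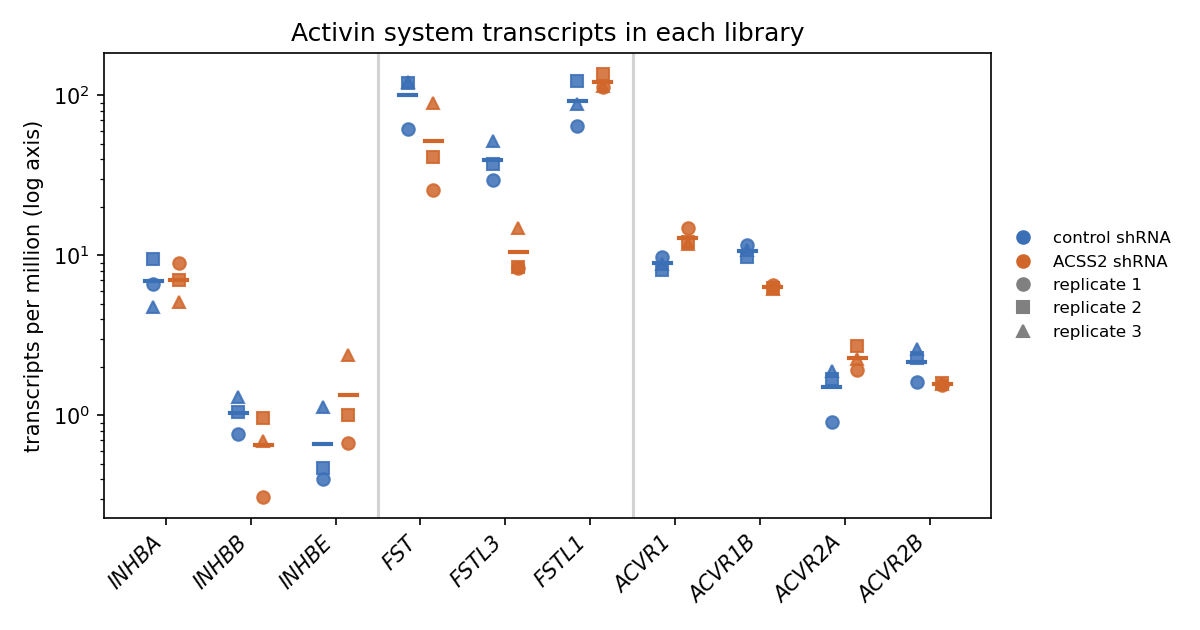
Transcript level in TPM, a length-scaled unit (log axis), of the 10 genes in each library, with control shRNA in blue, ACSS2 shRNA in orange, the marker shape giving the replicate and a bar at each mean of 3 libraries. FSTL3 and ACVR1B lay lower and ACVR1 higher in all 3 ACSS2 shRNA libraries. ACVR2B was lower and ACVR2A higher in all 3, each by a narrow gap on this scale, and the other 5 genes overlapped.

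FSTL3 and FST, the secreted activin antagonists, were lower under the ACSS2 hairpin in every pair, and FSTL1, a follistatin-domain protein of the extracellular matrix, was higher in every pair by a smaller amount. FSTL3 (gene ID 10272, chromosome 19, 674778 to 683515, band 19p13.3, GRCh38 coordinates of the deposited table) had 43.4, 50.6 and 75.4 CPM with the control hairpin and 10.6, 10.7 and 21 CPM with the ACSS2 hairpin, in the order of replicates 1, 2 and 3 used throughout. The highest ACSS2 shRNA library lay below the lowest control library. The paired log2 fold change was -2.03 (SE 0.13), a 4.08-fold lower level. The 3 pairs differed by -2.02, -2.22 and -1.84, so the size was nearly the same in each. The ACSS2 pairs spanned -2.76 to -0.49. Over the 6 libraries, which share hairpin and replicate number, the log2 CPM of FSTL3 and ACSS2 had a Pearson r of 0.765. Whether the FSTL3 level followed that of ACSS2 was not tested. Without the block the value was -2.0 (SE 0.33).

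FST (gene ID 10468, chromosome 5, 53480338 to 53487134, band 5q11.2) had 71.3, 124 and 138 CPM with the control hairpin and 24.5, 42.1 and 96.3 CPM under the ACSS2 hairpin. The groups overlapped, since ACSS2 shRNA replicate 3 exceeded control replicate 1. Within pairs FST was lower by -1.54, -1.55 and -0.52, and the smallest difference was in pair 3, where both libraries were highest. The paired log2 fold change was -1.20 (SE 0.18) and the unpaired one -1.03 (SE 0.47). Without replicate 3 the paired value was -1.55, and without replicate 1 it was -1.03.

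FSTL1 (gene ID 11167, chromosome 3, 120388152 to 120560958, band 3q13.33) had 145, 256 and 198 CPM with the control hairpin and 223, 268 and 248 CPM under the ACSS2 hairpin. All 3 pairs were higher, by 0.62, 0.06 and 0.32, and the groups overlapped. Its paired value was 0.33 (SE 0.13). The table gives FSTL1 on the plus strand and RefSeq on the minus strand. The table's interval overlaps that of NDUFB4, while RefSeq's FSTL1 (120392293 to 120450992) ends before it, and strand use in the counting was not given in the sources used here.

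**Figure D2:**
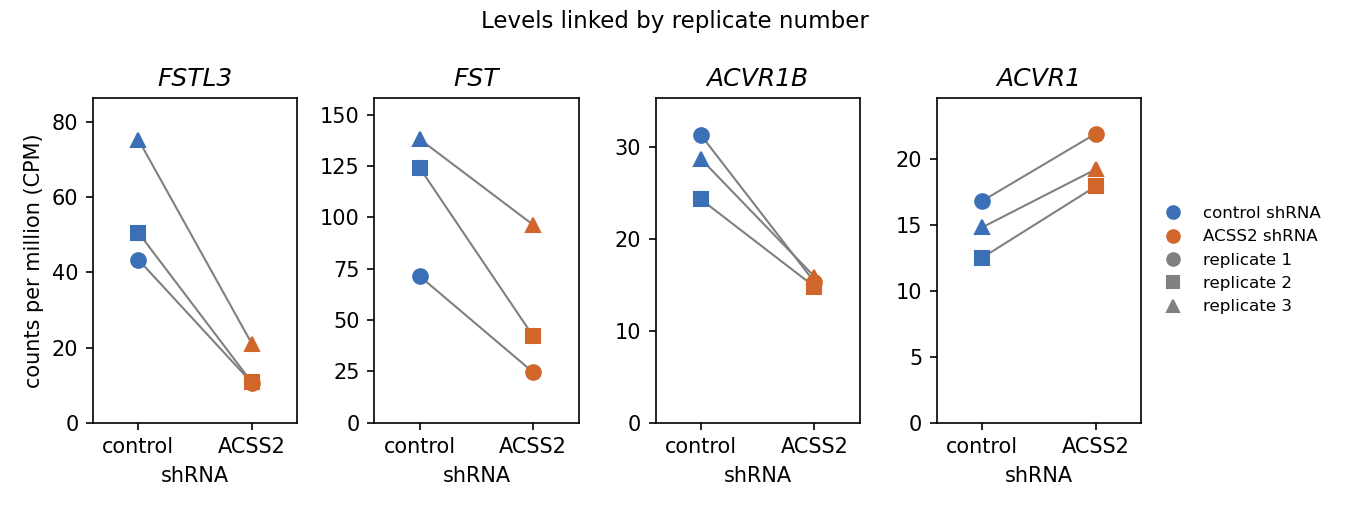
CPM of FSTL3, FST, ACVR1B and ACVR1 with control and ACSS2 shRNA libraries of the same replicate number joined by a line; each axis starts at 0. Every line falls for FSTL3, FST and ACVR1B and rises for ACVR1, and the FST lines start and end at different levels by replicate.

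The ligand genes differed less clearly, or rested on few reads. INHBA (gene ID 3624, chromosome 7, 41575174 to 41710532, band 7p14.1), which encodes the chain of activin A, had 23.9, 31.4 and 17 CPM with the control hairpin and 28.4, 22.1 and 17.6 CPM under the ACSS2 hairpin. The pairs went in different directions (0.25, -0.51 and 0.05), and the paired log2 fold change was -0.07 (SE 0.15). INHBB (gene ID 3625, chromosome 2, 120346142 to 120351808, band 2q14.2), the chain of activin B, rested on few reads: 25, 32 and 38 counts in control and 9, 25 and 20 under the ACSS2 hairpin. Its paired value was -0.82 (SE 0.33), with all 3 pairs lower, and ranged from -1.22 to -0.31 over the paired alternatives. INHBE (gene ID 83729, chromosome 12, 57455291 to 57459917, band 12q13.3), the chain of activin E, best known from liver, had 10, 11 and 25 counts in control and 15, 20 and 53 under the ACSS2 hairpin. Its paired value was 0.89 (SE 0.33), with all 3 pairs higher and the groups overlapping. It ranged from 0.45 to 1.00 over the paired alternatives, and its interval in the table overlaps those of R3HDM2, GLI1 and ARHGAP9.

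The 2 type I receptors differed in opposite directions. ACVR1B (gene ID 91, chromosome 12, 51951621 to 52001097, band 12q13.13), the activin type I receptor also called ALK4, had 31.3, 24.3 and 28.7 CPM with the control hairpin and 15.3, 14.8 and 15.9 CPM under the ACSS2 hairpin. The groups did not overlap, and the 3 ACSS2 shRNA libraries lay close together. Its paired log2 fold change was -0.87 (SE 0.13, 1.83-fold lower), with pairs at -1.03, -0.72 and -0.84.

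ACVR1 (gene ID 90, chromosome 2, 157716931 to 157899888, band 2q24.1), also called ALK2, is a type I receptor that mostly serves BMP signals. It had 16.8, 12.5 and 14.8 CPM with the control hairpin and 21.9, 17.9 and 19.2 CPM under the ACSS2 hairpin, again without overlap. Its paired value was 0.43 (SE 0.13), with pairs at 0.38, 0.52 and 0.37. The ratio of ACVR1B to ACVR1 in TPM was 1.18, 1.22 and 1.23 in control and 0.445, 0.518 and 0.519 under the ACSS2 hairpin. ACVR1B was thus the more abundant of the pair in every control library and the less abundant in every ACSS2 shRNA library, while their summed level was 19.6 ± 1.78 TPM (SD, n = 3) in control and 19.2 ± 1.79 TPM (SD, n = 3) under the ACSS2 hairpin.

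Of the type II receptors, ACVR2B was lower and ACVR2A higher in every pair. ACVR2B (gene ID 93, chromosome 3, 38428359 to 38494833, band 3p22.2) had 10.9, 14.3 and 17.8 CPM with the control hairpin and 9.30, 9.49 and 10.2 CPM under the ACSS2 hairpin. The groups did not overlap, and the difference grew from the pair with the lowest control level to the pair with the highest (-0.23, -0.59 and -0.79). Its paired value was -0.54 (SE 0.16), and -0.29 in the paired limma fit on log2(TPM + 1). ACVR2A (gene ID 92, chromosome 2, 147844507 to 147930827) had 2.79, 4.90 and 5.81 CPM with the control hairpin and 5.18, 7.29 and 6.70 CPM under the ACSS2 hairpin, with all 3 pairs higher. The groups overlapped in CPM, and did not overlap in TPM (0.91, 1.70 and 1.89 against 1.91, 2.72 and 2.26). Its paired value was 0.54 (SE 0.21). In the table the intervals of ACVR1B, ACVR2A and ACVR2B overlap those of NR4A1, ORC4 and XYLB.

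**Figure D3:**
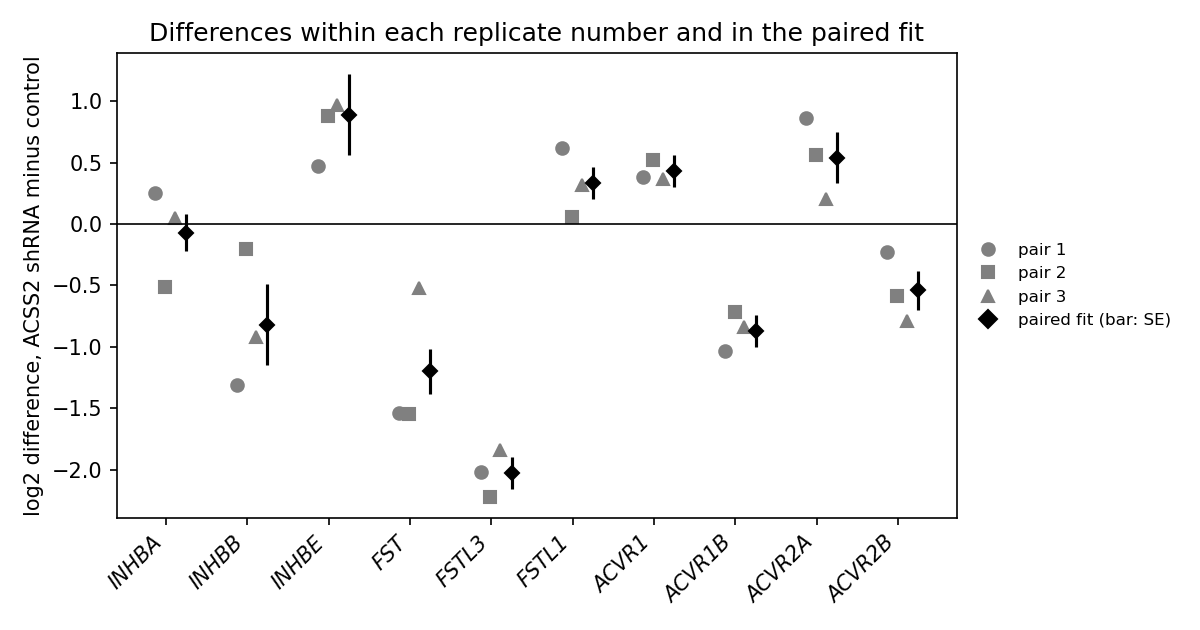
Log2 difference of ACSS2 shRNA minus control for the 10 genes, as 3 grey points for the pairs and a diamond with its SE for the paired fit. FSTL3 lies lowest, with pairs from -2.22 to -1.84, and the pairs of INHBA lie on both sides of 0.

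By the rule used for other genes, the paired fit marked 1 member higher (ACVR1) and 4 lower (FSTL3, FST, ACVR1B and ACVR2B) of 10, against 12.7% and 12.4% of all tested genes. The unpaired fit marked 0 (3 at an unadjusted p under 0.05, and 2 by DESeq2), against 0.0692%. ACVR1 lost the paired mark with DESeq2 and when replicate 1, 2 or 3 was left out, and ACVR2B with limma on TPM and when replicate 2 or 3 was left out. INHBB gained it without replicate 2, ACVR2A without replicate 3, and FSTL1 and INHBE with limma on TPM at either pseudocount. The groups did not overlap in CPM for 4 members, against 20.3% of all tested genes. The median paired log2 fold change of the 10 was -0.31, against 0.02 for all tested genes. Since the members were picked with this contrast in view, nothing is read from these counts. In the authors' deposited table, where 2.51% of genes have a q under 0.05, FSTL3 (log2 fold change -2.02) and ACVR1B (-0.90) were the 2 members under it, from the same libraries.

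Compared per length, FST was the most abundant member in control, at 101 ± 33.3 TPM (SD, n = 3), and FSTL1 followed at 91.7 ± 29.5 TPM (SD, n = 3), within its spread. FSTL3 came next at 39.6 ± 11.2 TPM, apart from its neighbours on both sides. ACVR1B (10.7 ± 0.887 TPM), ACVR1 (8.90 ± 0.898 TPM) and INHBA (6.96 ± 2.38 TPM) formed a middle group in which neighbours overlapped. ACVR2B, ACVR2A, INHBB and INHBE lay at the bottom, from 2.17 ± 0.510 TPM for ACVR2B down, each overlapping the next. Under the ACSS2 hairpin FSTL1 was highest (121 ± 12.9 TPM) and FST next (52.1 ± 33.6 TPM). FSTL3 (10.5 ± 3.76 TPM) then came between ACVR1 and INHBA and overlapped both, and ACVR1B followed INHBA, overlapping it.

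The summed level of FST and FSTL3 was 91.63, 156.47 and 172.34 TPM in control and 33.81, 49.38 and 104.68 TPM under the ACSS2 hairpin. The beta chains together had 8.67 ± 2.06 TPM (SD, n = 3) in control and 9.05 ± 0.926 TPM (SD, n = 3) under the ACSS2 hairpin. Antagonist transcripts therefore exceeded beta-chain transcripts in every library, by ratios of 11.8, 14.2 and 23.9 in control and 3.38, 5.48 and 12.8 under the ACSS2 hairpin. The ratio was lower in each pair, and the groups overlapped because ACSS2 shRNA replicate 3 exceeded control replicate 1. These are RNA levels, and secreted protein was not measured. In bulk RNA, fewer cells with a transcript and less of it per cell cannot be told apart.

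The replicate number gives a contrast that did not enter the choice of members. Testing it in the fit with both terms called 5 of the 10 members, against 38.7% of all tested genes. The values are fitted averages over both hairpins, on the log2 scale and relative to replicate 1, for replicates 2 and 3. FST had the smallest p and was higher by 0.79 and 1.48 (edgeR adjusted p = 0.000851). FSTL3 was higher by 0.14 and 0.88 (edgeR adjusted p = 0.0015). INHBE was higher by 0.40 and 1.77 (edgeR adjusted p = 0.00644). INHBA differed by 0.03 in replicate 2 and by -0.59 in replicate 3 (edgeR adjusted p = 0.033), and FSTL1 was higher by 0.54 and 0.29 (edgeR adjusted p = 0.0421). None of the 4 receptors passed, with adjusted p from 0.0772 for ACVR2A to 0.472 for ACVR1B. Without replicate 3, FSTL3 (0.651), INHBE (0.635) and INHBA (0.952) lost the call (adjusted p in brackets), and FST and FSTL1 were called. FSTL1 in turn lost it without replicate 1 (0.171) or replicate 2 (0.195) and with RLE size factors (0.0543). INHBA was not called by DESeq2's likelihood-ratio test (0.0525), and ACVR2A gained it without replicate 2 (0.044). What the replicate numbers stand for, beyond a batch, is not given in the labels.

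The genes whose level over the 6 libraries was most like FSTL3 were PIK3CD, MID1 and RNF24 (Pearson r of log2 CPM 0.997 each), PKIG (0.994) and STK40 (0.991), out of 10687 genes averaging 5 CPM or more. STK40 had 278, 253 and 341 CPM with the control hairpin and 62.4, 62.5 and 118 CPM under the ACSS2 hairpin, close to the size of the FSTL3 difference. PIK3CD, a catalytic subunit of phosphoinositide 3-kinase, differed less (paired log2 fold change -0.90). The genes most like INHBA were the helicase gene DDX18 (0.995) and the proteasome genes PSMB1 (0.984) and PSMC6 (0.984). These correlations are a description over 6 libraries, which share hairpin and replicate number.

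Other genes of the pathway were taken from lists chosen with earlier results of these data known, and the unpaired fit called none of them. Of 9 tested ligand genes outside the family, 2 rose and 1 fell in the paired fit. Of all tested genes, 12.7% rose and 12.4% fell in that fit. Nothing is read from these counts or from those of the lists below. BMP2 rose from 44.5 ± 9.14 to 81.2 ± 10.4 CPM (SD, n = 3; 0.88, SE 0.11, edgeR adjusted p = 0.000257). TGFB1 rose from 611 ± 131 to 860 ± 72.8 CPM (0.51, adjusted p = 0.0199), and lost the call without replicate 2 (0.31, adjusted p = 0.394). BMP6 fell from 6.54 ± 0.783 to 4.15 ± 1.49 CPM (-0.70, adjusted p = 0.0298), a call lost in 5 of 9 paired alternatives, among them without replicate 1 (-0.55) and without replicate 2 (-0.68). Of 11 further receptors and co-receptors, 2 rose and 1 fell. TGFBR2, the type II receptor for TGF-beta, rose from 306 ± 65.7 to 685 ± 217 CPM (1.14, SE 0.13, edgeR adjusted p = 0.000175), with pairs at 1.29, 1.30 and 0.82. The pseudoreceptor BAMBI rose (0.60, adjusted p = 0.0239; without replicate 1 adjusted p = 0.12) and the BMP co-receptor RGMB fell (-0.63, adjusted p = 0.007; without replicate 2 adjusted p = 0.0825).

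Among 12 other antagonists and follistatin-domain genes, 2 rose and 1 fell, where 12.7% and 12.4% of all tested genes did. AGRN, encoding the matrix proteoglycan agrin with its follistatin-like domains, rose from 503 ± 186 to 807 ± 168 CPM (0.73, SE 0.13, edgeR adjusted p = 0.00209). SPARC rose from a low level (1.58 to 3.50 CPM; 1.24, adjusted p = 0.0319), and without replicate 1 the value was 0.61 (adjusted p = 0.172). TMEFF1 fell (-0.90, adjusted p = 0.0122), and lost the call without replicate 2 (-0.66, adjusted p = 0.14). Of 4 proprotein convertases, which cleave activin precursors, FURIN rose from 87.8 ± 14.8 to 140 ± 18.3 CPM (0.67, SE 0.11, edgeR adjusted p = 0.001), and PCSK5 (0.36, adjusted p = 0.105) and PCSK7 (-0.04, adjusted p = 0.836) did not pass. Of 19 SMAD proteins and regulators, 3 rose and 1 fell. SMAD3, which carries the activin and TGF-beta signal to the nucleus, rose by 0.39 (adjusted p = 0.0363; without replicate 2 adjusted p = 0.483), a call also lost with RLE size factors. The SMAD corepressor TGIF1 rose by 0.61 (adjusted p = 0.00231), and the ubiquitin ligase NEDD4L fell (-0.60, adjusted p = 0.00823; without replicate 2 adjusted p = 0.0868).

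Of 16 tested genes on the list of activin and TGF-beta targets, 9 rose and none fell in the paired fit, and 7 were not called. Of all tested genes, 12.7% rose and 12.4% fell. The median paired log2 fold change of the 16 was 0.76, against 0.02 over all tested genes. The groups did not overlap for 7, against 20.3% of all tested genes. The unpaired edgeR fit called none of the 16. This list was chosen with earlier results of these data known, so its counts and median are a description and no test. TGFBI, a secreted matrix protein, had 47.6, 13.1 and 15 CPM with the control hairpin and 182, 74.5 and 36.4 CPM under the ACSS2 hairpin (1.92, SE 0.18, edgeR adjusted p = 5e-05). The groups overlapped, since control replicate 1 lay above ACSS2 shRNA replicate 3. COL1A1, a fibrillar collagen chain, rose from 15.1 ± 2.54 to 36.4 ± 13.5 CPM (SD, n = 3; 1.22, SE 0.14, edgeR adjusted p = 0.00017). The transcription factor JUNB rose from 444 ± 90.4 to 829 ± 197 CPM (0.89, SE 0.12, edgeR adjusted p = 0.000369). PMEPA1 (1.59, adjusted p = 0.000415) and SMAD7 (1.34, adjusted p = 0.00118), both feedback inhibitors of SMAD signals, were singled out after their values were seen. FN1, LTBP2, TIMP1 and CDKN1A also rose, while SKIL, CCN2, ID1, ID2, ID3, TAGLN and GADD45B were not called. Many of these genes also answer TGF-beta and BMP signals, and no signalling measurement is in the data.

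**Figure D4:**
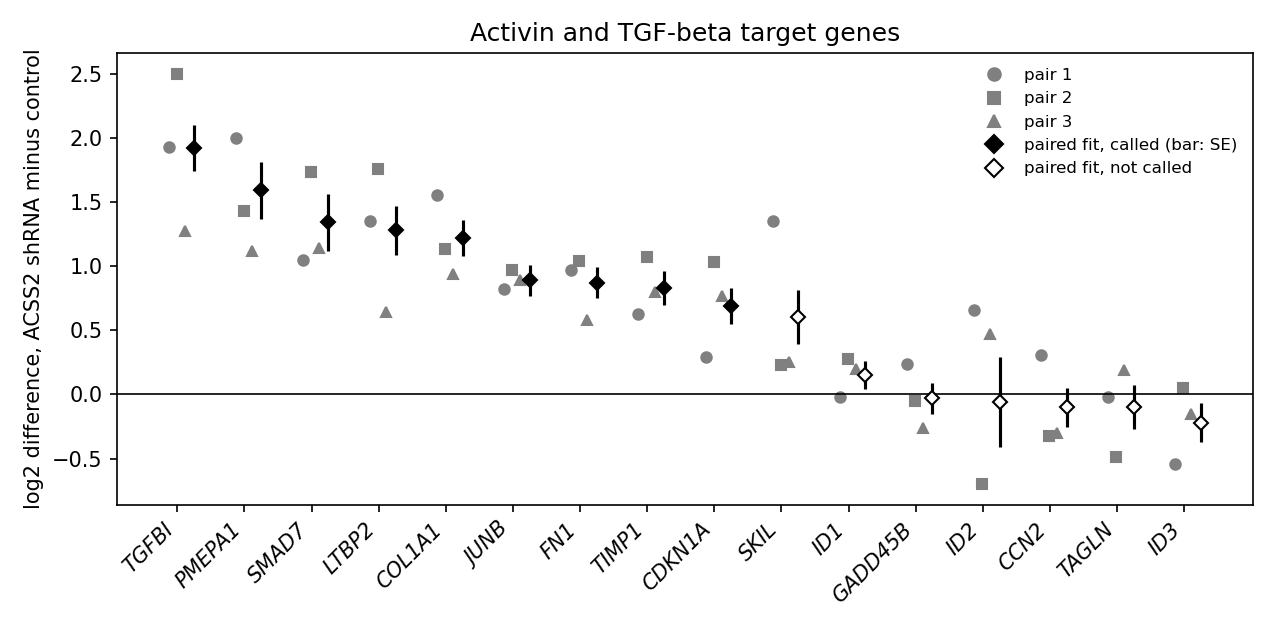
Log2 difference of ACSS2 shRNA minus control for the 16 tested target genes, as 3 grey points for the pairs and a diamond with its SE for the paired fit, filled where called. The 9 filled diamonds all lie above 0, and the 7 open ones lie between SKIL and ID3 on both sides of 0.

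Marker lists were read beside these results, and the unpaired fit called no gene on them. The line's own list summed to 7030 to 8170 CPM with the control hairpin and 7110 to 8120 CPM under the ACSS2 hairpin, carried by VIM. Of its 10 markers, 2 (CDH1 and PGR) were under 1 CPM on average, and CD44 fell (-0.57, edgeR adjusted p = 0.00598). All 5 fibroblast markers were under 1 CPM on average, with sums of 0.684 to 0.84 CPM with the control hairpin and 0.629 to 1.56 CPM under the ACSS2 hairpin. Leukocyte sums were 408 to 946 and 384 to 842 CPM, carried by CD68, with 2 of 4 markers, PTPRC and CD3E, under 1 CPM, while CD14 rose from 1.83 to 4.22 CPM (1.30, edgeR adjusted p = 0.00711). Endothelial sums were 4.28 to 5.92 and 5.96 to 15.1 CPM, the groups not overlapping, with 2 of 4 markers under 1 CPM and CDH5 rising from 1.01 to 3.72 CPM (1.79, edgeR adjusted p = 0.00394). Neuron and glia sums were 116 to 241 and 74.9 to 192 CPM, with 3 of 5 markers under 1 CPM, 1 of them at 0, and MBP (-0.41, edgeR adjusted p = 0.022) and RBFOX3 (-0.82, edgeR adjusted p = 0.00221) fell. The part of these marker differences in the results above was not tested.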

How the data were processed

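RNA of 6 libraries was enriched for poly(A) and sequenced on DNBSEQ at BGI, per the labels' protocols, and HISAT, Bowtie2 and RSEM are the tools in the submitters' processing notes (no versions). The authors deposited expected counts and TPM per gene, together with a log2 fold change, p-value and q-value of their own comparison. The annotation version was not given in the sources used here, and the table lists 17721 genes. Also, 565 lines of spilled annotation text were left out, 26 symbols turned into dates were restored from gene IDs, and 17479 IDs were found in a RefSeq gene table. The 6 FPKM columns were not used. Expected counts were rounded to whole counts (10.47% to 13.01% per library were not whole). Totals were 15048275 to 18608124 per library, and tests take counting error and replicate spread together. CPM were scaled with TMM factors.

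Hairpins were compared with edgeR 4.0.16 (quasi-likelihood, TMM, filterByExpr with minimum count 10 and minimum total 15) in R 4.3.3, with Benjamini-Hochberg adjustment over 13003 genes at a threshold of 0.05. SE is the absolute log2 fold change over the square root of F. The same fit with the replicate number as a block is the paired fit. The numbers come from a batch tag in the labels. Deviations from group means correlated by 0.716, 0.494 and 0.740 between same-numbered libraries (required minimum 0.1), and by at most -0.00998 between others, across genes, which are not independent. Within a group the deviations of a gene cancel out, so positive values for same-numbered libraries pull those between others down. The values between others are therefore no separate evidence for the pairing. The replicate terms were tested in the same fit. The test was run on simulated counts with replicate effects built in. That check cannot decide between the paired and the unpaired fit for these libraries.

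Alternatives were RLE and upper-quartile factors, no low-count filter, DESeq2 1.42.0, limma 3.58.1 on log2(TPM + 1) and log2(TPM + 0.1), and each library or replicate number left out. The members and lists were chosen with earlier results of these data known. From the lists, 2 genes are not reported here and were left out of the list counts, 1 of them a target gene that was not called. Named genes are ACSS2, the members, the 3 genes per pathway list with the smallest paired p and a mean of at least 1 CPM, and the 5 and 3 genes most correlated with FSTL3 and INHBA at 5 CPM or more. Promoter windows came from RefSeq (250 bases before and 50 after the start), and 3′ UTRs from the protein-coding transcript with the longest one per gene in GENCODE 29.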

Additional observations from a re-analysis of the deposited data

How the results depend on the processing

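The unpaired edgeR fit called 9 genes. It called 39 with no low-count filter and 0 to 7 with 1 library left out, and DESeq2 called 518. With the replicate block the count was 3265 in edgeR, 2576 with DESeq2, 3117 with RLE size factors, 3390 with upper-quartile factors, 3494 with no low-count filter, 3373 and 3324 with limma on log2(TPM + 1) and log2(TPM + 0.1), and 2743, 1646 and 3182 without replicate 1, 2 or 3. Of the 10 members, given as a description only, the unpaired fit called 0, and 1 was called with no filter, 2 with DESeq2 and 0 with 1 library left out. With the replicate block 5 were called, 4 with DESeq2, 5 with RLE size factors, upper-quartile factors or no filter, 6 with limma at either pseudocount, and 4 with 1 replicate number left out. The replicate number test called 5030 genes, and 2903 to 4337 with 1 number left out, and 5 members against 2 to 5.

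The median log2 fold change of all genes was 0.106 and 0.123 with limma on TPM, against 0.0179 unpaired and 0.0226 paired in edgeR. Direction turned for genes near 0 only. INHBA was 0.03 in all limma fits, 0.12 without control replicate 2 and with the block without replicate 2, and 0.06 without ACSS2 shRNA replicate 3, down to -0.29 with other libraries left out. PCSK7 was 0.10 with limma, 0.00 without control replicate 1 and 0.01 with the block without replicate 1, down to -0.10. DDX18 was 0.08 and 0.09 with limma and -0.14 to 0.07 with libraries left out. PSMB1 was 0.10 with limma and -0.11 to 0.05 (0.01 without control replicate 1) with libraries left out, and PSMC6 was 0.07 with limma and -0.29 to 0.14 (0.02 without ACSS2 shRNA replicate 3) with libraries left out. The cause of these changes was not tested. The low counts of INHBB and INHBE limit what can be seen for them.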
